A study of Mus musculus with 32 samples.

Results

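Wild-type mouse 4-cell embryos cultured with cycloheximide were compared directly with 4-cell embryos cultured with MG132, by their polyadenylated RNA. The comparison takes the 2 libraries titled as in vitro fertilised, cycloheximide, 4-cell and the 2 libraries titled as in vitro fertilised, MG132, 4-cell, which are 4 of the 32 samples of the series. Each library holds read counts for 56488 features, of which 55335 are genes and 1153 are repeat subfamilies. Both groups are labelled wild type, with embryos from females aged 6 to 8 weeks, grown in KSOM medium that held the drug. The 2 vehicle (DMSO) libraries of the same stage, genotype and female age show on which side of untreated embryos a gene lies, and 2 aphidicolin libraries of that stage enter the fit for its estimate of spread. The same pair of drugs, with the vehicle, was also given to 2-cell embryos of like labels and to AB2.2 cells, a wild-type mouse embryonic stem cell line, 2 libraries per group. Smart-seq2, which copies whole mRNAs from very small samples, was used for the embryos, and a TruSeq kit for the stem cells. The labels give no dose, no time of drug addition or collection, no strain and no number of embryos per library. They also do not say whether same-group libraries came from separate embryo pools, so the p-values describe the spread among these libraries alone, and that spread could be technical.

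Cycloheximide binds the ribosome and stops elongation, so that new proteins are no longer made, while the mRNA can persist. MG132 is a peptide aldehyde that blocks the proteolytic sites of the proteasome, so that ubiquitin-tagged proteins are no longer degraded. In many cell types the accumulation of unfolded protein after proteasome inhibition releases the transcription factor HSF1, which switches on chaperone genes through heat shock elements in their promoters. Chaperones fold new or damaged proteins: HSP70 proteins such as Hspa8 and Hspa1a do so with J-domain partners such as Dnajb1, HSP90 acts on partly folded clients, and Hspd1 with Hspe1 forms the folding chamber of the mitochondrion. Mouse embryos at the 4-cell stage have recently begun to transcribe their own genome and replace the RNA inherited from the oocyte.

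The libraries held 28605693 and 28747393 counts in cycloheximide embryos, 31442392 and 25358997 in MG132 embryos, and 32925454 and 29079599 in vehicle embryos. Between 21402 and 25928 genes had at least 1 read, with 25928 and 25848 in cycloheximide embryos, 22892 and 21402 in MG132 embryos, and 22728 and 21976 in vehicle embryos. Mitochondrial transcripts made up 23.1% and 21.7% of gene counts in cycloheximide embryos, 17.2% and 15.4% in MG132 embryos, and 14.6% and 11.4% in vehicle embryos. Levels are therefore shares of a library whose make-up differs between the drugs, and are given as CPM, that is, counts divided by the library size after TMM adjustment. In bulk RNA, fewer cells of a type and less RNA per cell cannot be told apart. Tead4, an early zygotic gene, was at 6.37 and 7.21 CPM in cycloheximide embryos, 9.37 and 9.30 CPM in MG132 embryos and 33.6 and 33.3 CPM in vehicle embryos, so that both drug groups lay below the vehicle (adjusted p = 0.00211 with cycloheximide and 0.0131 with MG132). The other markers chosen for the 4-cell stage onwards varied. Dppa5a was at 1084 and 1153 CPM in cycloheximide embryos, 2612 and 3797 CPM in MG132 embryos and 4866 and 5689 CPM in vehicle embryos. Klf17 was highest with MG132, at 57.7 and 114, 296 and 324, and 157 and 226 CPM in the same order. Nanog was at 1.47 and 1.23, 2.77 and 0.127, and 11.9 and 5.11 CPM. Pou5f1 and Krt8 were at or under 4.25 CPM in every library of these 3 groups. Of 6 oocyte markers, Zar1, Tbpl2 and Mos were at or under 3.07 CPM in every library of these 3 groups. Zp3 was at 31.4 and 36.2 CPM in cycloheximide embryos, 39 and 31.1 CPM in MG132 embryos and 35.3 and 42.4 CPM in vehicle embryos. Obox1 was at 38.9 and 39.2 CPM in cycloheximide embryos, 48.2 and 10.5 CPM in MG132 embryos and 4.66 and 10.2 CPM in vehicle embryos, and H1foo was at 6.72 and 7.85 CPM in cycloheximide embryos, 41.0 and 8.04 CPM in MG132 embryos and 4.52 and 4.11 CPM in vehicle embryos. Cdx2, a trophectoderm gene, had too few counts to be tested. Summed markers of cumulus and granulosa cells came to 52.3 and 58.8 CPM in cycloheximide embryos, 111 and 165 CPM in MG132 embryos, and 427 and 410 CPM in vehicle embryos. Gja1 was at 0.953 and 2.16 CPM in cycloheximide embryos, 41.6 and 79.7 CPM in MG132 embryos and 390 and 363 CPM in vehicle embryos. Without this marker the vehicle embryos did not have the highest sum. Of the 20 markers, 5 were at 0 in both cycloheximide libraries, 7 in both MG132 libraries and 8 in both vehicle libraries, with Amh, Fshr, Inhba, Nr5a1 and Ptx3 at 0 in all 3 groups. Summed fibroblast markers did not pass 7.70 CPM in any of these libraries.

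Of 22520 genes tested, 2271 (10.1%) differed between cycloheximide and MG132 embryos at an adjusted p under 0.05. Of these, 1014 (4.5% of the genes tested) were higher with cycloheximide and 1257 (5.58%) were lower. Which direction held more calls depended on the fit: 1430 were higher and 1052 lower when only the libraries compared were fitted, 2255 and 2028 with the DESeq2 Wald test, and 2095 and 1837 without a filter on low counts. At an unadjusted p under 0.05 there were 6011 genes, and the differences were large: 2230 of the 2271 were at least 2-fold, 1010 of them higher and 1220 lower. The count rested on single libraries to some degree. It was 1004 without cycloheximide library 1, 1451 without cycloheximide library 2, 1834 without MG132 library 1 and 1237 without MG132 library 2, and in these fits 949, 1321, 1494 and 1119 of the 2271 genes were called again in the same direction. All 2271 kept their direction in each of them. Unless stated otherwise, a gene named below as higher or lower between the drugs at 4 cells kept its call whichever of the 4 libraries was left out. Comparisons with the vehicle, at 2 cells alone or in stem cells were not refitted with a library left out. Against the vehicle, 4289 genes (19%) differed with cycloheximide, 8.77% higher and 10.3% lower. With MG132 there were 1663 (7.38%), 3.06% higher and 4.33% lower, and both of these comparisons use the same vehicle libraries.

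The direction of the difference followed the level of the gene. Among genes with a mean under 1 CPM over the 8 libraries of this stage, 0.412% were higher and 0.0129% lower with cycloheximide. Between 1 and 10 CPM, 5.62% were higher and 1.37% lower, and between 10 and 50 CPM the shares were 8.98% and 8.90%. Between 50 and 200 CPM, 7.11% were higher and 27.4% lower, and at 200 CPM and over 3.67% were higher and 47.0% lower. The median log2 fold change was 0.78, 0.44, -0.08, -0.51 and -0.93 in these 5 classes, and 0.20 over all genes. By these medians most genes at 50 CPM and over took a smaller part of the cycloheximide libraries than of the MG132 libraries. The 10 most abundant features of each library, genes or repeats, together took a larger one, with 27.8% and 28.7% of counts in cycloheximide embryos and 20.9% and 23.3% in MG132 embryos. The part that the make-up of the libraries has in single genes was not tested, and for the groups in which called genes went mostly one way the members are also counted by level.

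**Figure D1:**
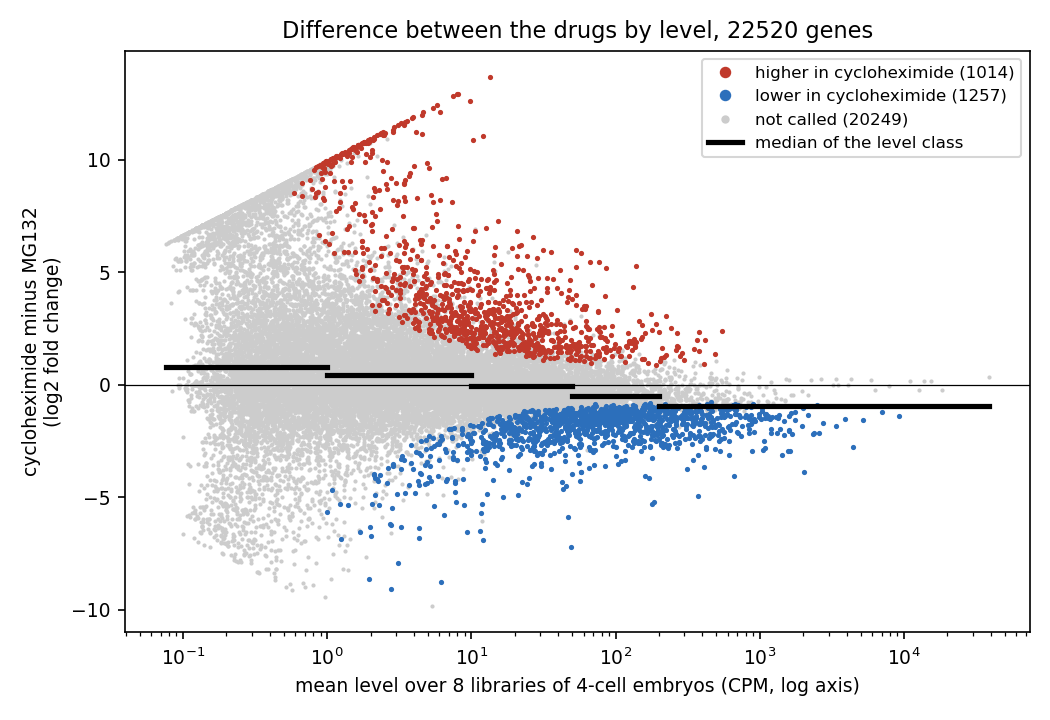
Log2 fold change of each tested gene (cycloheximide minus MG132, y axis) against its mean level over the 8 libraries of 4-cell embryos (CPM, log x axis), with called genes coloured by direction. The cloud tilts from a median of 0.78 under 1 CPM to -0.93 at 200 CPM and over.

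Many chaperone mRNAs were lower with cycloheximide than with MG132. Of 46 tested genes for heat shock proteins and their co-chaperones, 21 were lower, 0 were higher and 25 were not called, and the median log2 fold change was -1.18, also with the 1 member that had 0 counts in one drug set to its bound. The lower members numbered 3 of 12 between 10 and 50 CPM, 9 of 16 between 50 and 200 CPM and 9 of 13 at 200 CPM and over. At these levels 8.90%, 27.4% and 47.0% of all genes were lower. Without cycloheximide library 1, 12 members were called lower.

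Dnajb1 (chr8:83608193-83612653), the J-domain partner that hands unfolded proteins to HSP70, was at 17.4 and 44.5 CPM in cycloheximide embryos, 351 and 750.4 CPM in MG132 embryos and 26.2 and 31.3 CPM in vehicle embryos (log2 fold change -4.15 ± 0.55 (SE), adjusted p = 0.00418). Against the vehicle the gene was called with MG132 alone, with a log2 fold change of 0.11 with cycloheximide (adjusted p = 0.897) and 4.26 with MG132 (adjusted p = 0.00579). Hspa8 (chr9:40800984-40810087), the constitutive HSP70, showed another pattern. It was at 49.7 and 84.4 CPM in cycloheximide embryos, 914 and 1325 CPM in MG132 embryos and 896 and 936 CPM in vehicle embryos (log2 fold change -4.06 ± 0.35 (SE), adjusted p = 0.00193), so that MG132 embryos lay near the vehicle and cycloheximide embryos below both. Its log2 fold change against vehicle was -3.77 with cycloheximide (adjusted p = 0.000448) and 0.29 with MG132 (adjusted p = 0.603). Dnaja1 (chr4:40722150-40737149), another J-domain protein, had the same order, at 71.8 and 121 CPM in cycloheximide embryos, 678 and 1002 CPM in MG132 embryos and 659 and 775 CPM in vehicle embryos (log2 fold change -3.12 ± 0.35 (SE), adjusted p = 0.00239).

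The stress-inducible HSP70 genes were above the vehicle with both drugs. Hspa1a (chr17:34969190-34972156) was at 6.89 and 7.70 CPM in cycloheximide embryos, 49.3 and 48.3 CPM in MG132 embryos and 0.385 and 0.692 CPM in vehicle embryos (log2 fold change -2.74 ± 0.42 (SE), adjusted p = 0.00568). Its near-identical neighbour Hspa1b, whose reads the counting may have shared with it, was at 5.72 and 7.58 CPM in cycloheximide embryos, 62.5 and 29.6 CPM in MG132 embryos and 0.385 and 0.231 CPM in vehicle embryos. Its call (log2 fold change -2.79, adjusted p = 0.0348) was lost without cycloheximide library 1, cycloheximide library 2 or MG132 library 1. Against the vehicle Hspa1a differed by 3.75 with cycloheximide (adjusted p = 0.00118) and 6.50 with MG132 (adjusted p = 0.00286). The 2 genes of the mitochondrial chaperonin, which are transcribed away from one shared promoter region on chromosome 1, were both highest with MG132. Hspe1 (chr1:55088132-55091307) was at 186 and 169 CPM in cycloheximide embryos, 809 and 688 CPM in MG132 embryos and 73.3 and 55.9 CPM in vehicle embryos (log2 fold change -2.07 ± 0.36 (SE), adjusted p = 0.00997). Hspd1 (chr1:55077835-55088243) was at 42.4 and 52.2 CPM in cycloheximide embryos, 148 and 247 CPM in MG132 embryos and 50.3 and 61.9 CPM in vehicle embryos (log2 fold change -2.06 ± 0.32 (SE), adjusted p = 0.00653). The drug groups did not overlap for either gene. Hsph1, an HSP110 nucleotide exchange factor of HSP70, was at 84.4 and 126 CPM in cycloheximide embryos, 446 and 402 CPM in MG132 embryos and 111 and 70.2 CPM in vehicle embryos (log2 fold change -2.01 ± 0.40 (SE), adjusted p = 0.0168), a call lost without cycloheximide library 1. Cacybp, a partner of HSP90 and of a ubiquitin ligase, was at 66.1 and 77.1 CPM in cycloheximide embryos, 315 and 636 CPM in MG132 embryos and 157 and 125 CPM in vehicle embryos (log2 fold change -2.73 ± 0.35 (SE), adjusted p = 0.00379). Dnajb6, a J-domain protein that keeps aggregates apart, was below the vehicle with both drugs, at 71.6 and 128 CPM in cycloheximide embryos, 332 and 418 CPM in MG132 embryos and 796 and 734 CPM in vehicle embryos (log2 fold change -1.91 ± 0.30 (SE), adjusted p = 0.00667).

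Other members separated the drugs less. Hsp90aa1, the stress-responsive HSP90, was at 1246 and 1308 CPM in cycloheximide embryos, 3161 and 3411 CPM in MG132 embryos and 2465 and 1785 CPM in vehicle embryos (log2 fold change -1.36, adjusted p = 0.00939, lost without cycloheximide library 1). Hspb1, a small heat shock protein, was at 170.3 and 142 CPM in cycloheximide embryos, 214 and 478 CPM in MG132 embryos and 42.1 and 1.58 CPM in vehicle embryos and was not called (adjusted p = 0.614). Bag3, an HSP70 co-chaperone of the autophagy route, was at 13.1 and 19.8 CPM in cycloheximide embryos, 36.5 and 40.6 CPM in MG132 embryos and 4.87 and 11.9 CPM in vehicle embryos, and its drug difference was not called (adjusted p = 0.144). Over the 46 members the median against vehicle was -0.40 with cycloheximide, with 6 higher and 17 lower, and 0.60 with MG132, with 12 higher and 2 lower.

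**Figure D2:**
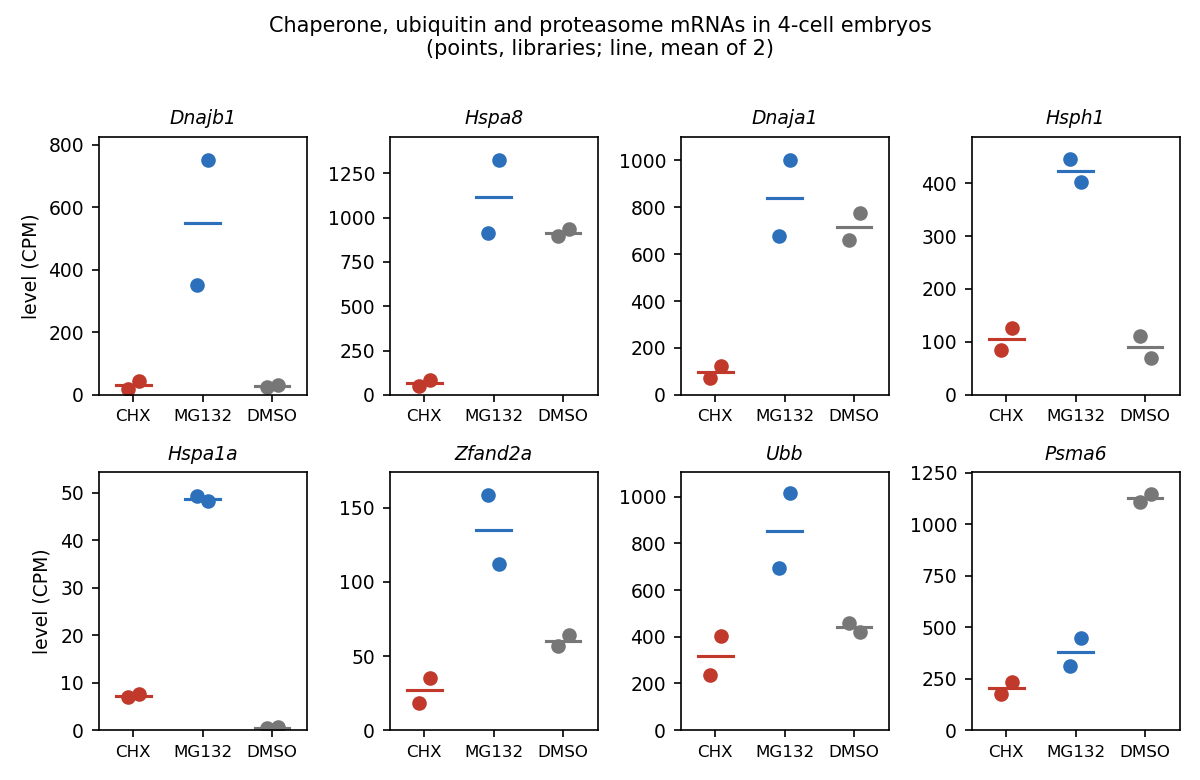
Level of chaperone, ubiquitin and proteasome genes in each library of cycloheximide, MG132 and DMSO 4-cell embryos (CPM, y axis from 0), 1 panel per gene, with 1 point per library and a line at the mean of 2 libraries. Dnajb1 is high in MG132 embryos alone (351 and 750 CPM), whereas Hspa8 is low in cycloheximide embryos alone (49.7 and 84.4 CPM).

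The promoters of the lower chaperone genes are shown because a heat shock element is a run of the 5-base unit NGAAN in alternating orientation, which can be read off the sequence. The windows are RefSeq promoters of the GRCm38.p6 build, which has the coordinates of mm10, and the 200 bases before a RefSeq transcription start are printed on the gene's strand. Where a gene has several starts, as Dnaja1, Dnajb6 and Hsph1 do, the window shown is one that holds a match, and that of Dnaja1 lies inside the gene span given above. Capitals mark each match to a pair of units, GAANNTTC or TTCNNGAA, each of which is its own reverse complement. The Hspe1 window is chr1:55087948-55088147 (plus strand), the Dnajb6 window chr5:29735698-29735897 (plus strand), the Dnaja1 window chr4:40722268-40722467 (plus strand), the Hsph1 window chr5:149636337-149636536 (minus strand) and the Hspa1a window chr17:34972157-34972356 (minus strand).
Hspe1: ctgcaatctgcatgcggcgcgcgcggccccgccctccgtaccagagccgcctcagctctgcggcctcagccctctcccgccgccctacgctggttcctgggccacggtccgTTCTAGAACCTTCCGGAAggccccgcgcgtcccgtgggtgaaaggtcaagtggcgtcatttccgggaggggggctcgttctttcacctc
Dnajb6: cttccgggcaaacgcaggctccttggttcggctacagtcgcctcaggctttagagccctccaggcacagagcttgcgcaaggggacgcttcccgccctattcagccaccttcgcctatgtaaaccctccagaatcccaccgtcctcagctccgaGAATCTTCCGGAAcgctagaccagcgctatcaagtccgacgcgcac
Dnaja1: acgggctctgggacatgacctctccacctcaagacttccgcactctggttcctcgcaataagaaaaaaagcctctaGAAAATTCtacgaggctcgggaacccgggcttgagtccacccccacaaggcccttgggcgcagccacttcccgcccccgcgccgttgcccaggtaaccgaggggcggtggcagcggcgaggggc
Hsph1: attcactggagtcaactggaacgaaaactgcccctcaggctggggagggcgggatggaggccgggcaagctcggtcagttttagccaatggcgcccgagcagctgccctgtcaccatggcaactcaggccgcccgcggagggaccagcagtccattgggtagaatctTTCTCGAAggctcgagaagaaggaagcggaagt
Hspa1a: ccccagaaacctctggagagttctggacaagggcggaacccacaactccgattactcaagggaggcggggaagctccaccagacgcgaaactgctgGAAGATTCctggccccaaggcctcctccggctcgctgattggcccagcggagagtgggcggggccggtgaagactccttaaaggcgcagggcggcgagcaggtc
Of the 46 tested chaperone genes, 39 had a RefSeq window. In the 250 bases before the start, 14 of these 39 (35.9%) held at least 1 such pair, against 14.5% of all 27025 genes with a window. Of the 21 members lower with cycloheximide 15 had a window, and 9 of these 15 held a pair (60%). Of the other 25 members 24 had a window, and 5 of these 24 held a pair (20.8%). A gene was counted if any of its windows held a match, and the sets differ in windows per gene. The 15 had 23 windows, the 24 had 28 and the 27025 genes had 32851, so these shares are not fully alike. A run of 3 units (GAANNTTCNNGAA or TTCNNGAANNTTC) was found in 3 of the 15, namely Hspd1, Hspe1 and Dnajb6, in 0 of the 24, and in 0.514% of all genes. Hspd1 and Hspe1 share 1 stretch of DNA read on opposite strands, so the same run is counted for both, and the windows of Hspa1a and Hspa1b are near-identical copies. These are letter matches in a window, and binding was not measured. The windows of Dnajb1 held no match to these letters. The same search in the ubiquitin and aggregate-clearance genes described next found a pair in 5 of 34 genes with a window (14.7%). These were 2 of 10 lower members and 3 of 24 others, and a run of 3 units was found in 0 and 2 of them.

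Some ubiquitin genes and factors that clear aggregated protein were lower with cycloheximide as well. Among all genes, 8.90% were lower between 10 and 50 CPM, 27.4% between 50 and 200 CPM and 47.0% at 200 CPM and over. Of 43 tested ubiquitin and clearance genes, 12 were lower with cycloheximide and 1 was higher. Of the lower members, 2 of 14 lay between 10 and 50 CPM, 5 of 13 between 50 and 200 CPM and 5 of 10 at 200 CPM and over, and without cycloheximide library 1 there were 4. Zfand2a, an arsenite- and proteasome-stress-inducible zinc finger protein that binds the proteasome, was at 18.5 and 35.3 CPM in cycloheximide embryos, 159 and 112 CPM in MG132 embryos and 56.9 and 64.1 CPM in vehicle embryos (log2 fold change -2.33 ± 0.36 (SE), adjusted p = 0.00618). Its relative Zfand5 was at 113 and 109 CPM in cycloheximide embryos, 491 and 494 CPM in MG132 embryos and 410.0 and 409 CPM in vehicle embryos (log2 fold change -2.15 ± 0.24 (SE), adjusted p = 0.00239). Both MG132 libraries lay above both vehicle libraries for these 2 genes, and both cycloheximide libraries lay below. Ubb, which encodes a chain of ubiquitin units, was at 236 and 402 CPM in cycloheximide embryos, 696 and 1014 CPM in MG132 embryos and 460.2 and 419 CPM in vehicle embryos, a call (log2 fold change -1.42, adjusted p = 0.0338) lost without cycloheximide library 1 or MG132 library 2. Ube2n, the enzyme for lysine-63-type chains, was at 60.9 and 76.6 CPM in cycloheximide embryos, 212 and 274 CPM in MG132 embryos and 378 and 435 CPM in vehicle embryos (log2 fold change -1.82 ± 0.24 (SE), adjusted p = 0.00399). Among 36 autophagy and lysosome genes 9 were lower and 0 higher, and 3 were lower without cycloheximide library 1. The lower members were 2 of 9 between 10 and 50 CPM, 4 of 14 between 50 and 200 CPM and 3 of 4 at 200 CPM and over. The shares of all genes at these levels were again 8.90%, 27.4% and 47.0%. Atg3, which attaches LC3-type proteins to lipid, was at 30.5 and 34.6 CPM in cycloheximide embryos, 169.8 and 180.1 CPM in MG132 embryos and 104 and 86.5 CPM in vehicle embryos (log2 fold change -2.43 ± 0.26 (SE), adjusted p = 0.00215). Gabarapl2, one of those proteins, was at 264 and 321 CPM in cycloheximide embryos, 1027 and 1669.9 CPM in MG132 embryos and 2926 and 3172 CPM in vehicle embryos (log2 fold change -2.21 ± 0.29 (SE), adjusted p = 0.00402).

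Genes of the proteasome itself, the target of MG132, did not separate the drugs as a group. Of 46 tested subunits and activators, 4 were higher and 5 lower with cycloheximide, with a median log2 fold change of 0.01. Without cycloheximide library 1, or without MG132 library 2, 1 member was called lower, and 4 and 2 were called higher. Against the vehicle, 28 of the 46 were lower with cycloheximide (median -1.49), and 25 were lower and 1 higher with MG132 (median -1.33). Psma6, a core subunit, was at 175 and 236 CPM in cycloheximide embryos, 313 and 448 CPM in MG132 embryos and 1109 and 1144 CPM in vehicle embryos. Psmd14, the deubiquitinase of the lid, was at 135 and 120.3 CPM in cycloheximide embryos, 161 and 252 CPM in MG132 embryos and 530.3 and 479 CPM in vehicle embryos. Neither differed between the drugs at the threshold (adjusted p = 0.0572 and 0.123). The higher members, of which single genes are given after their values were seen, included Psme1, a subunit of the PA28 activator, at 30.4 and 17.8 CPM in cycloheximide embryos, 1.75 and 4.23 CPM in MG132 embryos and 19.7 and 17.0 CPM in vehicle embryos (log2 fold change 3.02 ± 0.53 (SE), adjusted p = 0.0104). Psmb3, a core subunit, was at 63.6 and 80.0 CPM in cycloheximide embryos, 18.1 and 19.3 CPM in MG132 embryos and 122 and 186 CPM in vehicle embryos (log2 fold change 1.94 ± 0.31 (SE), adjusted p = 0.0069). Psme2, the partner of Psme1, was at 72.8 and 59.7 CPM in cycloheximide embryos, 19.8 and 6.77 CPM in MG132 embryos and 23.1 and 22.7 CPM in vehicle embryos, but its call (log2 fold change 2.32, adjusted p = 0.0212) was lost without cycloheximide library 1 or MG132 library 2. In the opposite direction, the lid subunit Psmd7 was at 35.2 and 40.5 CPM in cycloheximide embryos, 134 and 271 CPM in MG132 embryos and 508 and 535 CPM in vehicle embryos (log2 fold change -2.42 ± 0.33 (SE), adjusted p = 0.00439). Nfe2l1, the factor that induces proteasome genes when the proteasome is inhibited, was at 12.3 and 19.3 CPM in cycloheximide embryos, 22.4 and 14.3 CPM in MG132 embryos and 10.1 and 10.5 CPM in vehicle embryos, and its difference was not called (adjusted p = 0.83).

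Many mRNAs of the translation machinery were lower with cycloheximide. Of 79 cytosolic ribosomal protein genes, 48 were lower and 0 higher, with a median log2 fold change of -1.24. Of these, 45 were among the 71 members at 200 CPM and over, where 47.0% of all genes were lower. Without cycloheximide library 1 the count was 15. Against vehicle 77 were lower with cycloheximide (median -2.01) and 27 with MG132 (median -0.87), with 0 higher in each. Rps23 was at 101 and 133 CPM in cycloheximide embryos, 912 and 926 CPM in MG132 embryos and 1517 and 1298 CPM in vehicle embryos (log2 fold change -2.97 ± 0.28 (SE), adjusted p = 0.00193). Rps27 was at 149 and 169 CPM in cycloheximide embryos, 1175 and 1046 CPM in MG132 embryos and 1649 and 1868 CPM in vehicle embryos (log2 fold change -2.80 ± 0.45 (SE), adjusted p = 0.0072). Rpl34 was at 84.6 and 91.5 CPM in cycloheximide embryos, 429 and 562 CPM in MG132 embryos and 776 and 806 CPM in vehicle embryos (log2 fold change -2.49 ± 0.33 (SE), adjusted p = 0.00395). For all 3 the order was cycloheximide, MG132, vehicle from low to high, with no overlap between groups. Ribosomal protein genes have many retrocopies, and how reads shared with them were counted is not given in the sources used here. Processed pseudogenes, which include these copies, had 9 higher and 56 lower members of 1767 tested and a median of -0.72.

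Many genes for making ribosomes were also lower. Among 64 ribosome biogenesis and nucleolar genes, 10 of 28 were lower between 50 and 200 CPM, where 27.4% of all genes were. At 200 CPM and over 12 of 15 were lower, where 47.0% of all genes were. Over the 64 genes, 26 were lower and 0 higher. The count was 9 without cycloheximide library 1 and 16 without MG132 library 2. Nip7 (chr8:107056877-107060931), a factor for the large ribosomal subunit, was at 49.9 and 58.4 CPM in cycloheximide embryos, 361 and 417 CPM in MG132 embryos and 672 and 747 CPM in vehicle embryos (log2 fold change -2.84 ± 0.23 (SE), adjusted p = 0.00193). Rrs1, another large-subunit factor, was above the vehicle with MG132 and below it with cycloheximide, at 11.7 and 12.7 CPM in cycloheximide embryos, 79.1 and 94.4 CPM in MG132 embryos and 40.5 and 35.8 CPM in vehicle embryos (log2 fold change -2.83 ± 0.31 (SE), adjusted p = 0.0022). Ddx21, a nucleolar RNA helicase, was at 40.1 and 50.8 CPM in cycloheximide embryos, 216 and 189 CPM in MG132 embryos and 245 and 225 CPM in vehicle embryos (log2 fold change -2.16 ± 0.32 (SE), adjusted p = 0.00546). Fbl, the methyltransferase of box C/D particles, was at 13.6 and 21.8 CPM in cycloheximide embryos, 77.8 and 66.8 CPM in MG132 embryos and 56.2 and 45.4 CPM in vehicle embryos (log2 fold change -2.03 ± 0.33 (SE), adjusted p = 0.00783). Of 48 translation factors 16 were lower and 0 higher, and 8 were lower without cycloheximide library 1. These were 6 of 22 between 50 and 200 CPM and 10 of 21 at 200 CPM and over, shares near those of all genes at these levels (27.4% and 47.0%). Pabpc1, the cytoplasmic poly(A)-binding protein, was at 54.4 and 66 CPM in cycloheximide embryos, 399.9 and 376 CPM in MG132 embryos and 274 and 251 CPM in vehicle embryos (log2 fold change -2.69 ± 0.25 (SE), adjusted p = 0.00193). Eif4g2, a scaffold for cap-independent initiation, was highest with MG132, at 249 and 320.0 CPM in cycloheximide embryos, 1348 and 1167 CPM in MG132 embryos and 759 and 711 CPM in vehicle embryos (log2 fold change -2.14 ± 0.29 (SE), adjusted p = 0.00418). Eef1a1, the elongation factor that brings aminoacyl-tRNA, was lower than vehicle with both drugs but was not called between them, at 171 and 184 CPM in cycloheximide embryos, 218 and 191 CPM in MG132 embryos and 643 and 575 CPM in vehicle embryos (adjusted p = 0.702).

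Splicing regulators and hosts of small nucleolar RNAs gave mixed directions. Of 28 splicing regulators 8 were lower and 1 higher, and without cycloheximide library 1 there were 3 and 0. The lower members were 2 of 5 between 10 and 50 CPM, 4 of 11 between 50 and 200 CPM and 2 of 9 at 200 CPM and over. At these levels 8.90%, 27.4% and 47.0% of all genes were lower, so the share at 200 CPM and over was below that of all genes. Srsf1 was at 69.5 and 63.4 CPM in cycloheximide embryos, 378 and 326 CPM in MG132 embryos and 168 and 164 CPM in vehicle embryos (log2 fold change -2.41 ± 0.23 (SE), adjusted p = 0.00193). Hnrnpa2b1 was at 90.2 and 101 CPM in cycloheximide embryos, 491 and 442 CPM in MG132 embryos and 617 and 491 CPM in vehicle embryos (log2 fold change -2.29 ± 0.23 (SE), adjusted p = 0.00193). Snhg genes are noncoding hosts of small nucleolar RNAs, and since their spliced RNA is cleared by a decay pathway that needs translation, cycloheximide is known to stabilise several of them. Of 17 tested hosts, 4 were higher and 2 lower. The higher ones were 1 of 4 between 1 and 10 CPM, where 5.62% of all genes were higher. They were 2 of 7 between 10 and 50 CPM and 1 of 4 between 50 and 200 CPM, where 8.98% and 7.11% were. Against vehicle 5 were higher and 3 lower with cycloheximide (median 0.08), and 0 higher and 4 lower with MG132 (median -0.28). Snhg17 was at 48.4 and 48.9 CPM in cycloheximide embryos, 5.26 and 6.34 CPM in MG132 embryos and 18.7 and 29.3 CPM in vehicle embryos (log2 fold change 3.07 ± 0.37 (SE), adjusted p = 0.00295). Snhg11 was at 21.4 and 12.7 CPM in cycloheximide embryos, 0.338 and 0.465 CPM in MG132 embryos and 4.52 and 2.65 CPM in vehicle embryos (log2 fold change 5.40 ± 0.71 (SE), adjusted p = 0.00399). Snhg3 went the other way, at 3.92 and 6.65 CPM in cycloheximide embryos, 71.5 and 67.1 CPM in MG132 embryos and 158 and 102 CPM in vehicle embryos (log2 fold change -3.71 ± 0.37 (SE), adjusted p = 0.00193), and Gas5 and Snhg1 were not called (adjusted p = 0.479 and 0.849).

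**Figure D3:**
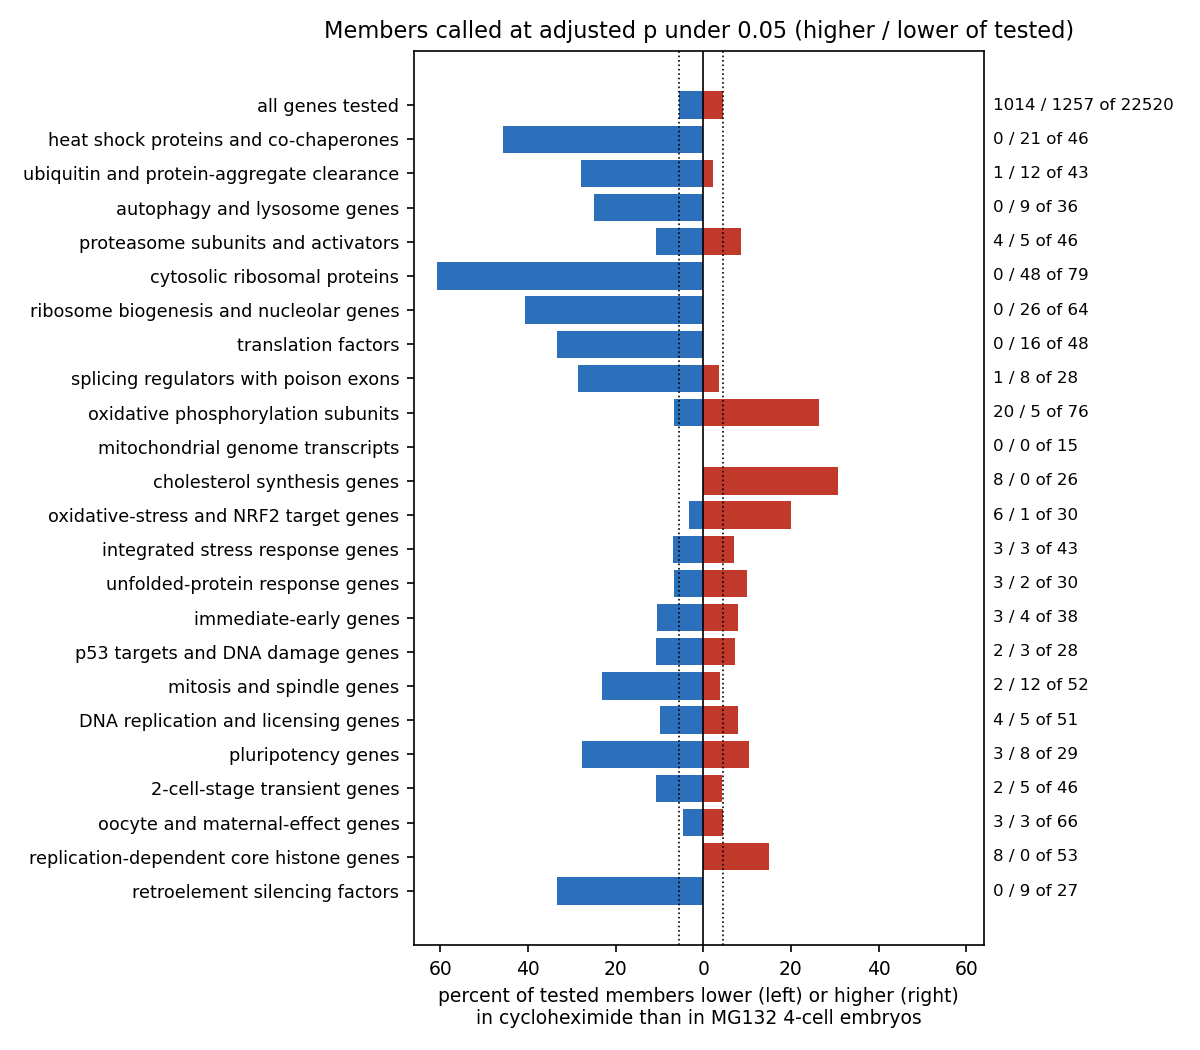
Percent of the tested members of each gene list that were lower (left) or higher (right) in cycloheximide than in MG132 4-cell embryos at an adjusted p under 0.05, with the counts beside each bar. Ribosomal proteins (48 of 79 lower) and heat shock genes (21 of 46 lower) extend to the left, and cholesterol synthesis (8 of 26 higher) and oxidative phosphorylation (20 of 76 higher) to the right.

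More nuclear genes of mitochondrial respiration were higher than lower with cycloheximide. Of 76 subunits of oxidative phosphorylation 20 were higher and 5 lower, with a median log2 fold change of 0.48 beside 0.20 over all genes. The higher members were 8 of 26 between 10 and 50 CPM, where 8.98% of all genes were higher, 8 of 25 between 50 and 200 CPM, where 7.11% were, and 3 of 19 at 200 CPM and over, where 3.67% were. The count was 13 without MG132 library 1, 11 without MG132 library 2 and 15 without either cycloheximide library, and 1 member was lower without cycloheximide library 1. Against vehicle the group was lower with both drugs: the median was -0.98 with cycloheximide, with 2 higher and 32 lower, and -1.41 with MG132, with 0 higher and 36 lower. Atp5e (chr2:174461072-174464105), the epsilon subunit of ATP synthase, was at 121 and 108 CPM in cycloheximide embryos, 9.74 and 9.85 CPM in MG132 embryos and 44.9 and 46.6 CPM in vehicle embryos (log2 fold change 3.55 ± 0.48 (SE), adjusted p = 0.00421). Ndufb6, a complex I subunit, was at 311 and 269 CPM in cycloheximide embryos, 48.0 and 42.4 CPM in MG132 embryos and 162 and 190.1 CPM in vehicle embryos (log2 fold change 2.68 ± 0.30 (SE), adjusted p = 0.00239). For both genes cycloheximide embryos lay above and MG132 embryos below the vehicle. Ndufb4, another complex I subunit, was below the vehicle with both drugs, at 16.5 and 11.4 CPM in cycloheximide embryos, 2.49 and 1.52 CPM in MG132 embryos and 30.3 and 24.3 CPM in vehicle embryos (log2 fold change 2.79 ± 0.49 (SE), adjusted p = 0.0102), and its call was lost without MG132 library 2. Cox7c, a small subunit of complex IV, opposed them, at 46.4 and 46.3 CPM in cycloheximide embryos, 396 and 243 CPM in MG132 embryos and 687 and 673 CPM in vehicle embryos (log2 fold change -2.79 ± 0.42 (SE), adjusted p = 0.00588). The 15 transcripts of the mitochondrial genome had a median log2 fold change of 0.18. Of these, mt-Nd1, a complex I subunit, was at 11129.5 and 11794 CPM in cycloheximide embryos, 9391 and 10831 CPM in MG132 embryos and 15346 and 10532 CPM in vehicle embryos (log2 fold change 0.18, adjusted p = 0.735).

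Sterol genes were higher with cycloheximide in part. Of 26 genes of cholesterol synthesis and transport, 8 were higher and 0 lower, with a median log2 fold change of 1.35. Among all genes, 5.62% were higher between 1 and 10 CPM, 8.98% between 10 and 50 CPM and 7.11% between 50 and 200 CPM. The higher sterol genes were 3 of 9, 2 of 11 and 3 of 6 at these levels. The count was 4 without cycloheximide library 1, 4 without cycloheximide library 2 and 3 without MG132 library 2. Against vehicle, cycloheximide gave 13 higher and 1 lower (median 1.62) and MG132 1 higher and 3 lower (median 0.12). Stard4, which carries cholesterol between membranes, was at 148 and 275 CPM in cycloheximide embryos, 5.38 and 1.99 CPM in MG132 embryos and 11.7 and 6.77 CPM in vehicle embryos (log2 fold change 5.83 ± 0.60 (SE), adjusted p = 0.00214). Msmo1 (chr8:64718139-64733792), which removes methyl groups from the sterol ring, was at 102 and 137 CPM in cycloheximide embryos, 8.05 and 6.94 CPM in MG132 embryos and 34.9 and 53.2 CPM in vehicle embryos (log2 fold change 3.99 ± 0.37 (SE), adjusted p = 0.00193). Mvd (chr8:122433601-122443422), the decarboxylase that makes isopentenyl units, was at 21.3 and 20.4 CPM in cycloheximide embryos, 0.123 and 0.0846 CPM in MG132 embryos and 0.736 and 1.23 CPM in vehicle embryos (log2 fold change 7.57 ± 0.98 (SE), adjusted p = 0.00387). In each case both cycloheximide libraries lay above every MG132 and vehicle library. Idi1, which isomerises those units, was at 119.7 and 179 CPM in cycloheximide embryos, 17.1 and 11.8 CPM in MG132 embryos and 39.9 and 27.1 CPM in vehicle embryos (log2 fold change 3.37 ± 0.65 (SE), adjusted p = 0.0151), a call lost without MG132 library 2. Fdps, the next enzyme, was at 24.9 and 28.5 CPM in cycloheximide embryos, 8.85 and 6.56 CPM in MG132 embryos and 28.6 and 28.8 CPM in vehicle embryos, and its call (adjusted p = 0.0409) was lost whichever of the 4 libraries was left out. Insig1, which holds the sterol sensor in place, was at 36.2 and 61.4 CPM in cycloheximide embryos, 65.7 and 68.9 CPM in MG132 embryos and 16.6 and 18.7 CPM in vehicle embryos and was not called (adjusted p = 0.384).

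**Figure D4:**
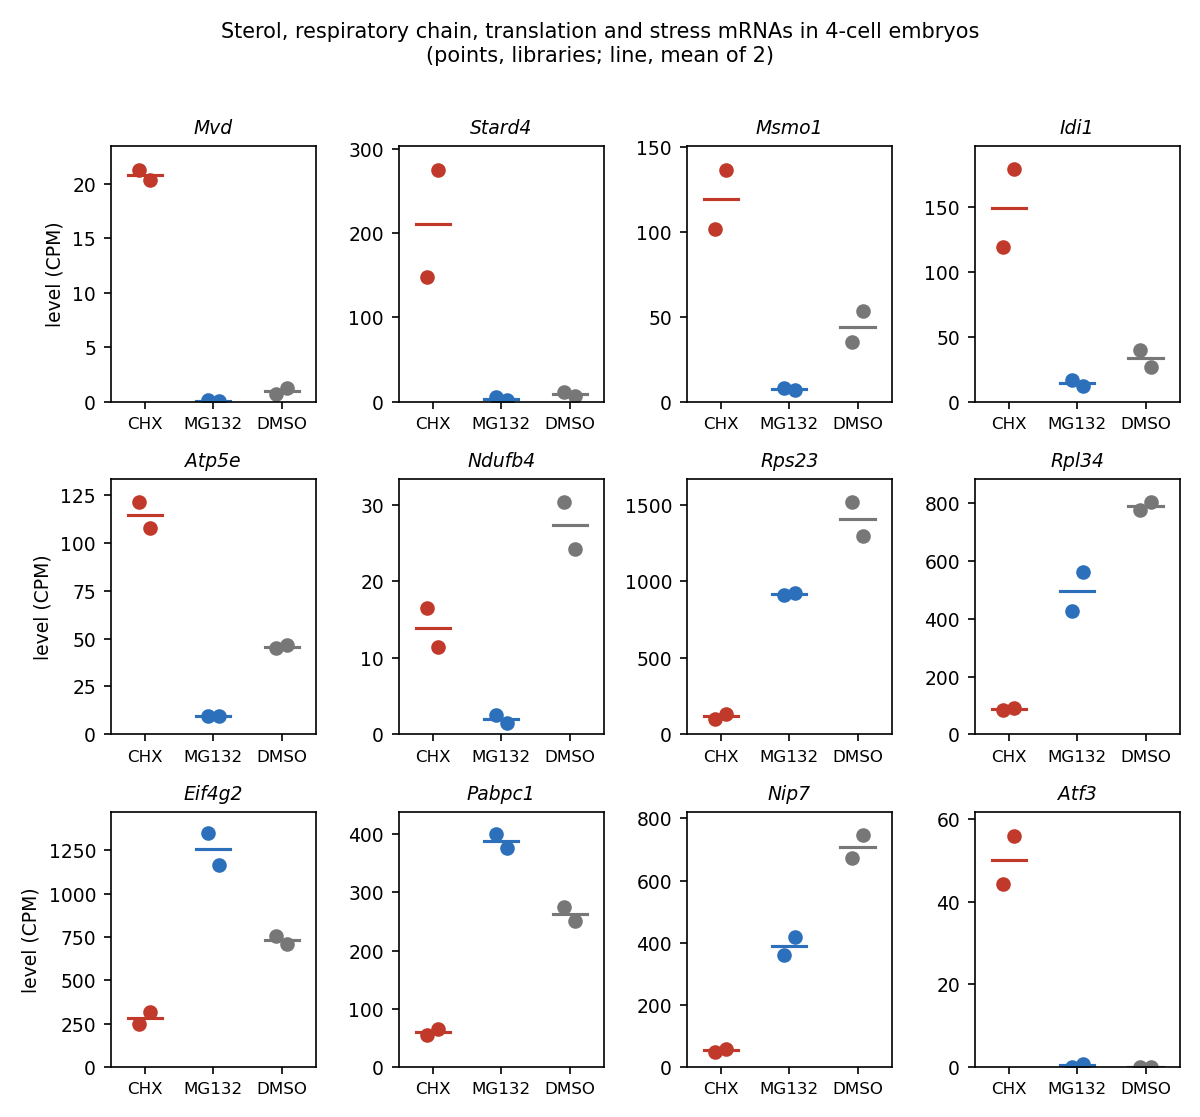
Level in each library of cycloheximide, MG132 and DMSO 4-cell embryos (CPM, y axis from 0), 1 panel per gene, with 1 point per library and a line at the mean of 2 libraries, for genes of translation, respiration, sterol synthesis and stress. Stard4 lies at 148 and 275 CPM in cycloheximide embryos and at most 11.7 CPM elsewhere, and Rps23 at 101 and 133 CPM against at least 912 CPM.

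Stress and early-response genes differed gene by gene. Of 30 antioxidant and NRF2-target genes 6 were higher and 1 lower. The higher members were 4 of 8 between 50 and 200 CPM and 2 of 3 at 200 CPM and over. At these levels 7.11% and 3.67% of all genes were higher. Gpx1, a glutathione peroxidase, was at 161 and 228 CPM in cycloheximide embryos, 42.6 and 51.4 CPM in MG132 embryos and 138 and 198 CPM in vehicle embryos (log2 fold change 2.05 ± 0.29 (SE), adjusted p = 0.0049). Fth1, the ferritin heavy chain, was at 674 and 804 CPM in cycloheximide embryos, 208 and 170.2 CPM in MG132 embryos and 371 and 311 CPM in vehicle embryos (log2 fold change 1.96 ± 0.27 (SE), adjusted p = 0.00445). Hmox1, haem oxygenase, was at 7.46 and 3.97 CPM in cycloheximide embryos, 0 and 0.381 CPM in MG132 embryos and 1.61 and 0 CPM in vehicle embryos and was not called (adjusted p = 0.18). Of 43 genes of the integrated stress response 3 were higher and 3 lower, and the counts were 2 and 1 without cycloheximide library 1, 1 and 3 without cycloheximide library 2, and 1 and 1 without MG132 library 2. Of 30 genes of the unfolded-protein response of the endoplasmic reticulum 3 were higher and 2 lower, and the counts were 1 and 1 without cycloheximide library 1, 1 and 2 without cycloheximide library 2, and 0 and 1 without MG132 library 2. Atf3 (chr1:191170296-191218039), a transcription factor of both stress and growth responses, had nearly all its reads in cycloheximide embryos, at 44.2 and 56.0 CPM in cycloheximide embryos, 0.0615 and 0.761 CPM in MG132 embryos and 0 and 0.0384 CPM in vehicle embryos (log2 fold change 6.98 ± 1.01 (SE), adjusted p = 0.00522). Ddit3, the factor CHOP, was above the vehicle with both drugs, at 114 and 112 CPM in cycloheximide embryos, 70.2 and 64.5 CPM in MG132 embryos and 10.6 and 9.92 CPM in vehicle embryos. It had a log2 fold change against vehicle of 3.46 with cycloheximide (adjusted p = 0.000293) and 2.71 with MG132 (adjusted p = 0.00286), and was not called between them (adjusted p = 0.0934). Atf4, which acts upstream of Ddit3, was at 65.9 and 128 CPM in cycloheximide embryos, 128 and 141 CPM in MG132 embryos and 66.1 and 82.2 CPM in vehicle embryos (adjusted p = 0.419 between the drugs).

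Among 38 immediate-early genes 3 were higher and 4 lower, and the counts were 3 and 1 without cycloheximide library 1 and 2 and 2 without cycloheximide library 2. These genes respond to stimulation without new protein, and translation blocks are known to stabilise their mRNA in other cells. Id2 was at 212 and 366 CPM in cycloheximide embryos, 8.64 and 7.49 CPM in MG132 embryos and 29.8 and 6.73 CPM in vehicle embryos (log2 fold change 5.16 ± 0.79 (SE), adjusted p = 0.00608). Id3 was at 112 and 168 CPM in cycloheximide embryos, 2.30 and 4.14 CPM in MG132 embryos and 25.3 and 38.1 CPM in vehicle embryos (log2 fold change 5.44 ± 0.80 (SE), adjusted p = 0.00532). Both encode inhibitors of basic helix-loop-helix factors. Egr1, Jun and Btg2 did not separate the drugs (adjusted p = 1, 1 and 0.181), with Egr1 at 11.8 and 7.51 CPM in cycloheximide embryos, 7.47 and 11.7 CPM in MG132 embryos and 0.280 and 0.0384 CPM in vehicle embryos. Mcl1, a short-lived survival protein, was low with cycloheximide alone, at 41.8 and 37.9 CPM in cycloheximide embryos, 264 and 276 CPM in MG132 embryos and 286 and 312 CPM in vehicle embryos (log2 fold change -2.76 ± 0.26 (SE), adjusted p = 0.00193). Cdkn1a, the p53 target p21, was at 150.1 and 198 CPM in cycloheximide embryos, 15.9 and 41.3 CPM in MG132 embryos and 18.6 and 38.0 CPM in vehicle embryos (log2 fold change 2.61 ± 0.53 (SE), adjusted p = 0.0182). Mdm2, another p53 target, was at 56.1 and 49.4 CPM in cycloheximide embryos, 78.1 and 72.2 CPM in MG132 embryos and 52.3 and 71.5 CPM in vehicle embryos and was not called (adjusted p = 0.272). Of 28 p53-pathway genes 2 were higher and 3 lower, and the counts were 2 and 1 without cycloheximide library 1, 1 and 3 without cycloheximide library 2, 4 and 2 without MG132 library 1, and 1 and 3 without MG132 library 2. Casp6, an effector caspase, was low with MG132, at 19.5 and 25.9 CPM in cycloheximide embryos, 0.522 and 1.82 CPM in MG132 embryos and 56.2 and 62.1 CPM in vehicle embryos (log2 fold change 4.30 ± 0.62 (SE), adjusted p = 0.00502).

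Called mitosis genes were mostly lower with cycloheximide, while called replication genes went both ways. Of 52 mitosis and spindle genes 12 were lower and 2 higher, and the counts were 3 lower and 1 higher without cycloheximide library 1 and 4 lower and 1 higher without MG132 library 2. The lower members were 5 of 23 between 50 and 200 CPM, where 27.4% of all genes were lower, and 7 of 11 at 200 CPM and over, where 47.0% were. Cenpa, the histone of the centromere, was at 51.1 and 62.7 CPM in cycloheximide embryos, 215 and 361 CPM in MG132 embryos and 226 and 253 CPM in vehicle embryos (log2 fold change -2.34 ± 0.36 (SE), adjusted p = 0.00667). Ccna2, cyclin A2, was at 144 and 231 CPM in cycloheximide embryos, 671 and 687 CPM in MG132 embryos and 478 and 369 CPM in vehicle embryos (log2 fold change -1.86 ± 0.29 (SE), adjusted p = 0.00654). Ccnb1, cyclin B1, a protein the proteasome destroys at anaphase, was at 408 and 556 CPM in cycloheximide embryos, 910.3 and 1577 CPM in MG132 embryos and 2065 and 2068 CPM in vehicle embryos (log2 fold change -1.37, adjusted p = 0.0244), a call lost without cycloheximide library 1 or MG132 library 2. Cdc20, which directs that destruction, was at 20.1 and 45.6 CPM in cycloheximide embryos, 108 and 118 CPM in MG132 embryos and 175 and 187 CPM in vehicle embryos, and its call (adjusted p = 0.0442) was kept only in the fit without cycloheximide library 2. Of 51 replication and licensing genes 4 were higher and 5 lower, and without cycloheximide library 1 there were 2 and 3.

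Replication-dependent histone mRNAs, which normally end in a stem-loop and not in a poly(A) tail, were few in these poly(A) libraries. Of 53 tested, 32 lay under 1 CPM, where 0.412% of all genes were higher, and 18 between 1 and 10 CPM, where 5.62% were. The 53 had a median level of 0.716 CPM. With cycloheximide 8 were higher, 0 of the 32 and 5 of the 18 among them, and 0 lower. The count was 4 without cycloheximide library 1 and 3 without cycloheximide library 2 or MG132 library 2. Hist1h4d was at 131 and 82.1 CPM in cycloheximide embryos, 4.18 and 1.99 CPM in MG132 embryos and 40.04 and 47.9 CPM in vehicle embryos (log2 fold change 5.10 ± 0.68 (SE), adjusted p = 0.00418). Hist1h1b (chr13:21779883-21780625), a linker histone, was at 33.3 and 17.2 CPM in cycloheximide embryos, 0 in both MG132 libraries and 14.4 and 12.3 CPM in vehicle embryos. That puts it at least 473-fold higher with cycloheximide than with MG132, from 3 counts over the 2 MG132 libraries, a bound that covers counting error only. H3f3a, a polyadenylated gene for the replacement histone H3.3, went the other way, at 519 and 366 CPM in cycloheximide embryos, 1277 and 2189.6 CPM in MG132 embryos and 1956 and 1585 CPM in vehicle embryos (log2 fold change -1.97 ± 0.31 (SE), adjusted p = 0.0067). Histone genes share sequence, so reads may be divided between copies.

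Pluripotency genes were mostly lower where called. Of 29, 8 were lower and 3 higher, and 5 were lower without cycloheximide library 1. The lower members were 1 of 6 between 10 and 50 CPM, 3 of 5 between 50 and 200 CPM and 4 of 4 at 200 CPM and over. At these levels 8.90%, 27.4% and 47.0% of all genes were lower. Dppa2, a chromatin factor that primes early genes, was at 33.5 and 42.7 CPM in cycloheximide embryos, 183 and 183 CPM in MG132 embryos and 446 and 500.0 CPM in vehicle embryos (log2 fold change -2.27 ± 0.26 (SE), adjusted p = 0.00239). Its partner Dppa4 was at 76.4 and 108 CPM in cycloheximide embryos, 400.1 and 472 CPM in MG132 embryos and 708 and 677 CPM in vehicle embryos (log2 fold change -2.24 ± 0.30 (SE), adjusted p = 0.00418). Both were lowest with cycloheximide and highest in the vehicle. Sall4, a zinc finger factor of stem cells, was at 23.1 and 28.2 CPM in cycloheximide embryos, 110.2 and 231 CPM in MG132 embryos and 172 and 231 CPM in vehicle embryos (log2 fold change -2.73 ± 0.42 (SE), adjusted p = 0.00608). Klf17, a Kruppel-like factor, had the vehicle libraries between those of the drugs, at 57.7 and 114 CPM in cycloheximide embryos, 296 and 324 CPM in MG132 embryos and 157 and 226 CPM in vehicle embryos (log2 fold change -1.85 ± 0.35 (SE), adjusted p = 0.0133). Zfp42 (chr8:43295063-43306980), known as Rex1, was lowest with MG132, at 39.5 and 46.2 CPM in cycloheximide embryos, 1.17 and 2.41 CPM in MG132 embryos and 22.3 and 28.3 CPM in vehicle embryos (log2 fold change 4.59 ± 0.50 (SE), adjusted p = 0.0023). Nanog and Pou5f1 were not called between the drugs (adjusted p = 0.976 and 0.865).

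Genes of the 2-cell wave of genome activation differed more from the vehicle than between the drugs. Of 46 tested, 2 were higher and 5 lower with cycloheximide than with MG132, and the higher ones numbered 0 without cycloheximide library 2, 1 without MG132 library 1 and 0 without MG132 library 2. Against vehicle 15 were higher and 10 lower with cycloheximide (median 1.34), and 6 were higher and 5 lower with MG132 (median 1.23). Zscan4d was at 23.3 and 44.6 CPM in cycloheximide embryos, 18.0 and 15.7 CPM in MG132 embryos and 10.1 and 3.38 CPM in vehicle embryos. Zfp352 was at 118 and 224 CPM in cycloheximide embryos, 57.8 and 73.3 CPM in MG132 embryos and 18.1 and 7.31 CPM in vehicle embryos, and neither was called between the drugs (adjusted p = 0.272 and 0.281). Ubtfl1, a 2-cell gene related to the nucleolar factor UBF, was at 10.3 and 7.94 CPM in cycloheximide embryos, 84.4 and 141 CPM in MG132 embryos and 126 and 127 CPM in vehicle embryos (log2 fold change -3.62 ± 0.35 (SE), adjusted p = 0.00193). Of 66 oocyte and maternal-effect genes 3 were higher and 3 lower, and the counts were 2 and 1 without cycloheximide library 1 and 1 and 2 without MG132 library 2. Against vehicle 20 were higher and 4 lower with cycloheximide (median 1.22) and 12 higher and 0 lower with MG132 (median 1.55). Btg4, a maternal factor that recruits the deadenylase, was at 194 and 191 CPM in cycloheximide embryos, 170.2 and 132 CPM in MG132 embryos and 26.7 and 24.7 CPM in vehicle embryos and did not separate the drugs (adjusted p = 0.649).

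The largest differences among genes that reached 10 CPM in 1 of the drugs were mostly outside these lists. The decreases included Gja1 (connexin 43), at 0.953 and 2.16 CPM in cycloheximide embryos, 41.6 and 79.7 CPM in MG132 embryos and 390.4 and 363 CPM in vehicle embryos (log2 fold change -5.29 ± 0.52 (SE), adjusted p = 0.00193). The homeobox gene Obox8 was at 2.59 and 10.2 CPM in cycloheximide embryos, 173 and 219 CPM in MG132 embryos and 721 and 712 CPM in vehicle embryos (log2 fold change -4.95 ± 0.59 (SE), adjusted p = 0.00297), a member of a family with near-identical copies. Synpr, a synaptic vesicle protein, was at 0.544 and 0.523 CPM in cycloheximide embryos, 6.55 and 15 CPM in MG132 embryos and 40.5 and 53.9 CPM in vehicle embryos (log2 fold change -4.32 ± 0.53 (SE), adjusted p = 0.00329). For these 3 genes MG132 embryos lay between cycloheximide and vehicle embryos. Gja1 is also one of the cumulus and granulosa markers summed above and gives most of that sum in vehicle embryos but not in the embryos given either drug, and the part of such cells in its level was not tested. Several of the largest increases had 0 counts in both MG132 libraries. Mdk (chr2:91929805-91932297), the growth factor midkine, was at 62.3 and 43.4 CPM in cycloheximide embryos, 0 in both MG132 libraries and 0.175 and 0.4998 CPM in vehicle embryos, at least 990.1-fold higher than with MG132. Kcnj10, a potassium channel, was at 23.5 and 21.5 CPM in cycloheximide embryos and 0 in every MG132 and vehicle library, at least 422-fold higher than with MG132. Gna15, a G protein alpha subunit, was at 14.1 and 22 CPM in cycloheximide embryos, 0 in both MG132 libraries and 0.490 and 1.15 CPM in vehicle embryos, at least 338-fold higher than with MG132. In all, 145 called genes had 0 counts in both MG132 libraries and 6 in both cycloheximide libraries.

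The haemoglobin gene Hba-a1 was also among the genes higher with cycloheximide, at 214 and 226 CPM in cycloheximide embryos, 4.70 and 5.41 CPM in MG132 embryos and 22.4 and 43.7 CPM in vehicle embryos (log2 fold change 5.44 ± 0.57 (SE), adjusted p = 0.00217). The summed blood markers were 239.9 and 256 CPM in cycloheximide embryos, 25.9 and 26.0 CPM in MG132 embryos, and 39.8 and 59.5 CPM in vehicle embryos. Hba-a1 alone gave most of that sum in cycloheximide and vehicle embryos but not in MG132 embryos. Of the 12 markers, Ptprc, Hbb-bs and Hbb-bt were at 0 in both cycloheximide libraries, Alas2, Ptprc and Hbb-bt in both MG132 libraries, and Alas2, Hbb-bs and Hbb-bt in both vehicle libraries. Summed sperm and spermatid markers were 60.3 and 56.2 CPM in cycloheximide embryos, 21.4 and 19.8 CPM in MG132 embryos, and 24.8 and 31.2 CPM in vehicle embryos. Odf2 led the sum in MG132 embryos and Ldhc in the other groups. Ldhc was at 43.6 and 26.5 CPM in cycloheximide embryos, 8.33 and 5.79 CPM in MG132 embryos and 16.2 and 27.8 CPM in vehicle embryos, a call (log2 fold change 2.31, adjusted p = 0.0276) that was kept only in the fit without cycloheximide library 2.

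Transposon RNA separated the drugs in few subfamilies. Of 1003 tested, 18 (1.79%) were called, 2 higher (0.199%) and 16 lower (1.6%) with cycloheximide, and 124 had an unadjusted p under 0.05. Without cycloheximide library 1 the count was 7. Of the 16 lower ones, 7 were of the ORR1A group, singled out after its values were seen: nonautonomous LTR elements of the MaLR class that early mouse embryos transcribe. The internal parts of ORR1A1, ORR1A2 and ORR1A3 carried the largest differences of the group. ORR1A1-int was at 503 and 718 CPM in cycloheximide embryos, 3032 and 4652 CPM in MG132 embryos and 3017 and 3533 CPM in vehicle embryos (log2 fold change -2.65 ± 0.29 (SE), adjusted p = 0.00303). ORR1A2-int was at 299 and 354 CPM in cycloheximide embryos, 1479 and 2270.5 CPM in MG132 embryos and 1987 and 1895 CPM in vehicle embryos (log2 fold change -2.52 ± 0.27 (SE), adjusted p = 0.00303). In both, MG132 embryos lay around the vehicle level and cycloheximide embryos below it. ORR1A3-int was at 77.1 and 105 CPM in cycloheximide embryos, 429.8 and 444 CPM in MG132 embryos and 412 and 373 CPM in vehicle embryos (log2 fold change -2.26 ± 0.25 (SE), adjusted p = 0.00303). ORR1A4-int was at 112 and 109 CPM in cycloheximide embryos, 362 and 421 CPM in MG132 embryos and 632 and 605 CPM in vehicle embryos (log2 fold change -1.83 ± 0.25 (SE), adjusted p = 0.00747). ORR1A1, ORR1A0-int and ORR1A0 were also lower (log2 fold change -1.84, -1.76 and -1.31), but their calls were lost without cycloheximide library 1, and that of ORR1A0 also without MG132 library 1. The other lower subfamilies included RLTR50B, at 7.51 and 7.42 CPM in cycloheximide embryos, 63.1 and 45.7 CPM in MG132 embryos and 30.3 and 19.9 CPM in vehicle embryos (log2 fold change -2.86 ± 0.38 (SE), adjusted p = 0.00747). RLTR19 was at 200.04 and 166 CPM in cycloheximide embryos, 1134 and 826 CPM in MG132 embryos and 517 and 563 CPM in vehicle embryos (log2 fold change -2.42 ± 0.35 (SE), adjusted p = 0.00807).

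Of the 2 higher subfamilies, RLTR9A3A was at 143 and 70.1 CPM in cycloheximide embryos, 14 and 15.6 CPM in MG132 embryos and 11.1 and 10.3 CPM in vehicle embryos (log2 fold change 2.85 ± 0.38 (SE), adjusted p = 0.00747). The other, MTEa, was at 586 and 551 CPM in cycloheximide embryos, 204 and 256 CPM in MG132 embryos and 175 and 158 CPM in vehicle embryos (log2 fold change 1.31, adjusted p = 0.0186), a call lost whichever of the 4 libraries was left out. MERVL, the retrovirus of the 2-cell stage, was not called: MERVL-int was at 6894 and 14369 CPM in cycloheximide embryos, 13275 and 23050.4 CPM in MG132 embryos and 6987 and 6547 CPM in vehicle embryos (adjusted p = 0.568), with replicates that overlapped between the drugs, and its promoter MT2_Mm was not called either (adjusted p = 0.518). IAPEz-int and the young LINE families L1Md_A, L1Md_T and L1Md_Gf were not called (adjusted p = 0.901, 0.389, 0.605 and 0.961). RLTR45-int was below the vehicle with both drugs, at 47.2 and 60.3 CPM in cycloheximide embryos, 171 and 98.4 CPM in MG132 embryos and 2173 and 2343 CPM in vehicle embryos, and was not called between them (adjusted p = 0.0592). By class, SINE reads made up 14.7% and 15.4% of counts in cycloheximide embryos, 8.93% and 10.9% in MG132 embryos, and 8.38% and 11.4% in vehicle embryos. These are shares before TMM adjustment, and they were 14.6% and 5.10% in the 2 aphidicolin libraries. Of 35 SINE subfamilies tested between the drugs, 0 were called higher and 0 lower, with a median log2 fold change of 0.09. Of 27 tested genes for the silencing of transposons, 9 were lower and 0 higher, and 3 were lower without cycloheximide library 1. The lower members were 1 of 14 between 10 and 50 CPM, 4 of 8 between 50 and 200 CPM, where 27.4% of all genes were lower, and 4 of 4 at 200 CPM and over, where 47.0% were. Sumo2, the protein tag used in that silencing, was at 157 and 148 CPM in cycloheximide embryos, 905 and 1367 CPM in MG132 embryos and 2014 and 2009.7 CPM in vehicle embryos (log2 fold change -2.90 ± 0.25 (SE), adjusted p = 0.00193). Cbx3, a heterochromatin protein, was at 131 and 115 CPM in cycloheximide embryos, 444 and 890.0 CPM in MG132 embryos and 741 and 788 CPM in vehicle embryos (log2 fold change -2.44 ± 0.43 (SE), adjusted p = 0.0108).

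The same pair of drugs was next compared by stage. The 2-cell libraries held 28300402 and 29521531 counts with cycloheximide, and 14505195 and 29053292 with MG132. At 2 cells 1200 of 26804 genes (4.48%) were called between cycloheximide and MG132, 1.36% higher and 3.12% lower with cycloheximide. The difference at 4 cells less that at 2 cells, tested as an interaction over 16 embryo libraries, was called for 1712 genes (6.39%), 1059 positive (3.95%) and 653 negative (2.44%). Its median over all genes was 0.57 with TMM scaling and 0.36 with DESeq2 size factors, with which 905 were positive and 874 negative. With library sizes from genes only, 849 were positive and 839 negative. The 15 genes whose interaction is given by name kept its direction and call under both of these scalings. They also kept both in all 8 fits that leave out 1 drug-treated library, except Dnaja1 and Zfand2a.

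The heat shock difference itself differed between the stages for part of the list. At 2 cells 2 of the 46 genes were lower and 1 higher, and the interaction was negative for 12 and positive for 0. Dnajb1 at 2 cells was at 40.3 and 38.5 CPM in cycloheximide embryos and 61.6 and 82.1 CPM in MG132 embryos, a difference that was not called (log2 fold change -0.87, adjusted p = 0.392), and the interaction was -3.33 ± 0.67 (SE, adjusted p = 0.00947). Hspa8 at 2 cells was at 116 and 67.5 CPM with cycloheximide and 56.9 and 55.9 CPM with MG132 (interaction -4.81 ± 0.55, SE, adjusted p = 0.000502). Dnaja1 and Zfand2a gave interactions of -2.49 and -2.94 (adjusted p = 0.0166 and 0.0153). Both were lost without 4-cell cycloheximide library 1 or 2-cell MG132 library 1.

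Nuclear genes of respiration had the opposite direction at 2 cells where called. There 20 of the 76 subunits were lower with cycloheximide and 0 higher (median -1.16), and the interaction was positive for 23 and negative for 0 (median 1.91). Transcripts of the mitochondrial genome went the other way, with 11 of 15 higher with cycloheximide at 2 cells and 0 lower (median 1.74). Their interaction was negative for 4 and positive for 0 (median -1.75). Atp5e at 2 cells was at 4.14 and 7.80 CPM with cycloheximide and 34.4 and 70.0 CPM with MG132 (log2 fold change -3.13, adjusted p = 0.00501), the opposite order to that at 4 cells, and the interaction was 6.63 ± 0.76 (SE, adjusted p = 0.000537). Sterol genes had 4 positive interactions and 0 negative ones, among them 6.15 for Stard4, 4.54 for Msmo1 and 9.56 for Mvd (adjusted p = 0.00078, 0.00253 and 0.00711). Ribosome biogenesis and mitosis genes gave mostly negative interactions: 15 of 64 and 13 of 52 had a negative interaction, and 0 and 1 a positive one. Among all genes 2.44% were negative and 3.95% positive. The interactions of the lists were not counted by level of the genes or with a library left out, so the part of level in them was not tested. Nip7 at 2 cells was at 197 and 377 CPM with cycloheximide and 77.3 and 70.7 CPM with MG132 (interaction -4.84 ± 0.45, SE, adjusted p = 0.000119), and Cenpa at 251 and 304 CPM with cycloheximide and 81.3 and 73.9 CPM with MG132 (interaction -4.22 ± 0.54, SE, adjusted p = 0.000979). Both genes were higher with cycloheximide at 2 cells (adjusted p = 0.00344 and 0.0127) and lower at 4 cells. Of repeat subfamilies, 3 of 1050 (0.286%) had a called interaction.

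In AB2.2 stem cells, fitted alone, 3267 of 18696 genes (17.5%) were called between the drugs, 8.78% higher and 8.7% lower with cycloheximide. The values are set beside those of embryos, and the difference between stem cells and embryos was not tested, since kit and system cannot be told apart. Of the 46 heat shock genes 2 were lower and 5 higher with cycloheximide. Dnajb1 was at 121 and 116 CPM with cycloheximide and 111 and 114 CPM with MG132 (log2 fold change 0.08, adjusted p = 0.612), and Hspa8 at 2709 and 2550.2 CPM with cycloheximide and 2887 and 3953 CPM with MG132 (log2 fold change -0.38, adjusted p = 0.15). Of 26 cholesterol genes 11 were lower with cycloheximide and 0 higher. Stard4 was at 64.2 and 70.1 CPM with cycloheximide and 82.9 and 45.5 CPM with MG132 (adjusted p = 0.875). Atf3, high with cycloheximide at 4 cells, was at 75.9 and 76.4 CPM with cycloheximide and 30.7 and 21.9 CPM with MG132 in stem cells (log2 fold change 1.53, adjusted p = 0.00288). Of 30 unfolded-protein response genes 16 were higher with cycloheximide and 0 lower, and of 36 tested 2-cell genes 26 were higher and 3 lower.

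**Figure D5:**
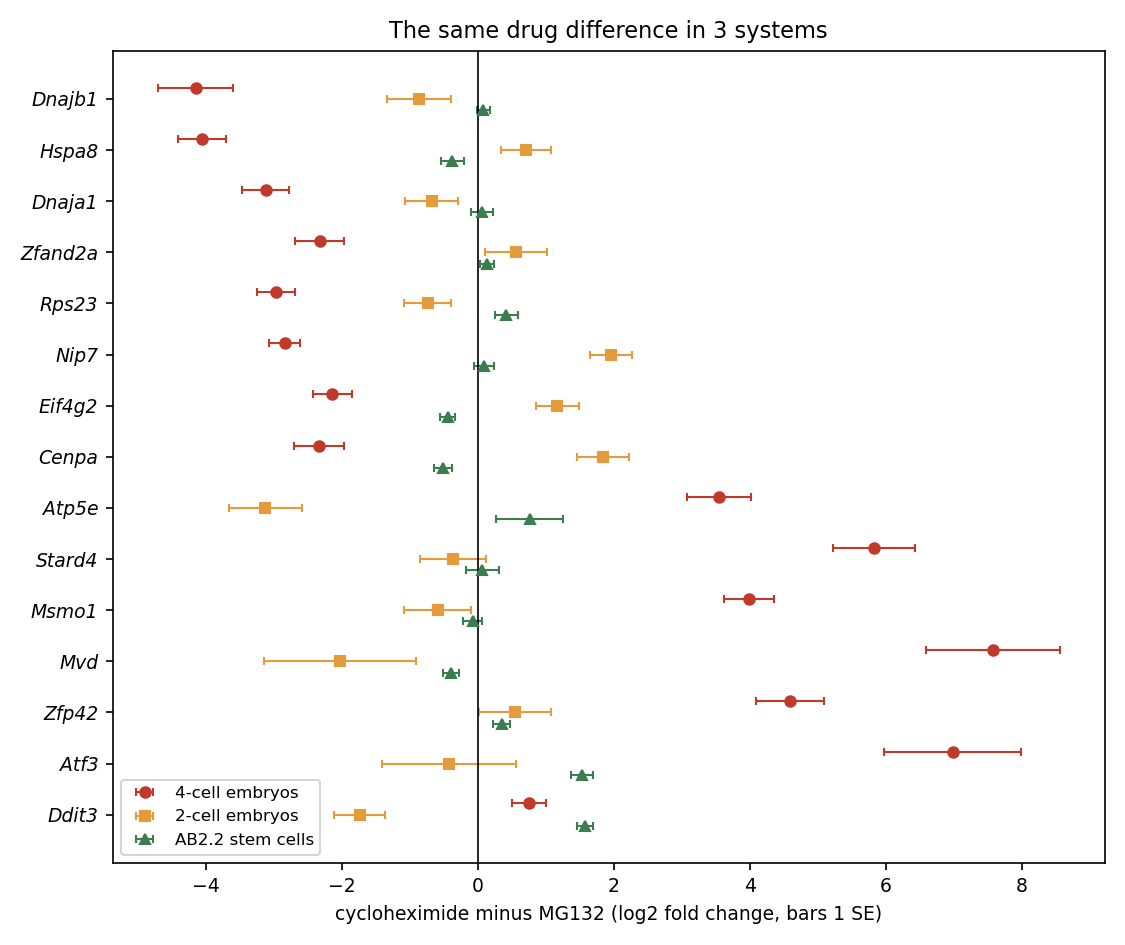
Log2 fold change, cycloheximide minus MG132 (x axis, bars 1 SE), of selected genes in 4-cell embryos, 2-cell embryos and AB2.2 stem cells, 1 row per gene and 1 marker per system. Hspa8 lies at -4.06 in 4-cell embryos, 0.71 in 2-cell embryos and -0.38 in stem cells, and Atp5e at 3.55, -3.13 and 0.76.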

How the data were processed

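The authors deposited 1 table per sample of raw read counts per gene and per repeat subfamily, not normalized, and the reads had been trimmed with cutadapt 1.16 and aligned with STAR to mm10, per the submitters' processing notes. The counting program, its annotation, its use of strand and its treatment of reads with several matches are not stated in any source used here. Reads of near-identical genes and of overlapping or antisense genes therefore may not be told apart. Of 55335 gene IDs, 55154 matched the GENCODE annotation of mm10, which gave symbols and positions.

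Genes were tested with edgeR 4.0.16 (limma 3.58.1, R 4.3.3) on the counts as deposited. The fit held the 8 libraries of 4-cell embryos, filterByExpr (minimum count 10, minimum total 15), TMM scaling over genes and repeats together, and the robust quasi-likelihood F-test. The interaction used 16 libraries of 2-cell and 4-cell embryos, and stem cells were fitted alone. P-values were adjusted by Benjamini-Hochberg over all genes, and separately over all subfamilies, with a threshold of 0.05. A fold against a group with 0 counts in both libraries is a bound from 3 counts over the group. Reads carry no molecular identifiers, so bounds cover counting error only. The scripts were tested on simulated data.

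The 37 gene lists were written from general knowledge, and the members and lists were chosen with earlier results of these data known, so no list was tested as a set and none is independent support. Named by rule were the 10 largest increases and decreases of called genes that reached 10 CPM in either drug, had no library of one drug inside the range of the other and were not predicted gene models or pseudogenes. The rule also named up to 4 called members of any list in which 25% or more were called, a set of index genes and subfamilies, the 3 largest changes per direction among called subfamilies, and the 4 largest interactions per direction. Named outside the rule, after their values were seen, were Hspe1, Hspd1, Dnajb6, Cacybp, Hsp90aa1, Psme1, Psme2, Psmb3, Psmd7, Ndufb6, Cox7c, Hist1h4d, Id2, Id3, Fdps, Gpx1, Fth1, H3f3a, Casp6, Dppa4, RLTR19 and 4 ORR1A subfamilies. Alternatives were DESeq2 1.42.0 size factors, the DESeq2 Wald test, no filter on low counts, at least 5 CPM in 2 libraries, the replicate number as a block, library sizes from genes only, only the libraries compared, and each library left out.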

Additional observations from a re-analysis of the deposited data

Results flagged for a closer look

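The interaction was called for 1712 genes, and 15 of them, picked from the genes described above, are given here, so their number is not a result. For each, the difference between cycloheximide and MG132 embryos at 4 cells differed from that at 2 cells. The test was the edgeR quasi-likelihood test of the interaction over 16 libraries, with Benjamini-Hochberg adjustment over all genes. In log2 units, 4 cells less 2 cells, the protein quality control genes were more negative at 4 cells: Dnajb1 -3.33 (adjusted p = 0.00947), Hspa8 -4.81 (0.000502), Dnaja1 -2.49 (0.0166) and Zfand2a -2.94 (0.0153). The same held for the ribosome biogenesis factor Nip7 at -4.84 (0.000119), the initiation scaffold Eif4g2 at -3.35 (0.00131), the centromeric histone Cenpa at -4.22 (0.000979) and the mitotic activator Cdc20 at -4.30 (0.0021).

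More positive at 4 cells were Atp5e at 6.63 (0.000537), Ndufb4 at 5.29 (0.00623), Stard4 at 6.15 (0.00078), Msmo1 at 4.54 (0.00253), Mvd at 9.56 (0.00711), Atf3 at 7.35 (0.0106) and Zfp42 at 4.00 (0.00722). For Eif4g2 the 2-cell levels were 310.4 and 448 CPM with cycloheximide and 165 and 173 CPM with MG132, and for Cdc20 203 and 358 CPM with cycloheximide and 57.3 and 43.9 CPM with MG132, the opposite order to that at 4 cells. Ndufb4 at 2 cells was at 0.422 and 1.14 CPM with cycloheximide and 2.41 and 6.65 CPM with MG132, and Zfp42 at 4.41 and 3.04 CPM with cycloheximide and 3.06 and 2.08 CPM with MG132. Dose and time of either drug at each stage are not given in the labels, and their part in these differences was not tested.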

How the results depend on the processing

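The number of genes called between cycloheximide and MG132 at 4 cells was 2271, and it was 4283 with the DESeq2 Wald test, 3932 without a filter on low counts and 1004 to 1834 when 1 of the 4 libraries was left out. The share of these calls that were higher was 44.6%, and 57.6% when only the libraries compared were fitted, 52.6% with the Wald test and 53.3% without a filter. For subfamilies the count was 18, and 56, 51 and 7 to 17 under the same 3 alternatives, with 29 at a minimum of 5 CPM. The 37 lists held 317 called members of 1228, and 143 to 274 when 1 library was left out. For the interaction the count was 1712 genes, with 3420 by the DESeq2 Wald test, 2662 without a filter and 619 to 1266 when 1 library was left out. The interaction of subfamilies was called for 3, and for 61, 13 and 0 to 3 under these, and for 0 when only the libraries compared were fitted. The cause of these shifts was not tested. Of 164 named features 98 were called, and some of these lost the call when 1 library was left out. None of the 98 changed direction under any alternative that gave a value.

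With the replicate number as a block, 2432 genes, 21 subfamilies, 352 list members, 1864 gene interactions and 5 subfamily interactions were called, and the 98 named features kept their calls. The numbers do not pair the libraries by the labels: deviations of same-numbered 4-cell libraries correlated between -0.0365 and 0.144 across genes (0.0969 for cycloheximide with MG132), and those of 2-cell libraries between 0.171 and 0.376. Depth limits low genes: of 7774 genes with a mean under 1 CPM, 32 were called higher and 1 lower.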
